A study of Mus musculus with 18 samples.

Results

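Malat1, Neat1, Miat, Rmst, Snhg11 and Pantr1 are long noncoding RNA genes known for RNAs that act in or stay in the nucleus. These 6 genes were taken by symbol, matched to Ensembl gene IDs, and 5 of them were among the 47729 genes of the count files. The RNA of Rmst was not analysed here, so for that gene only chromatin values are given. The listed RNAs were measured in whole cortex of embryonic day E15.5 mice with a conditional knockout of BAF155 (BAF155 cKO), a core subunit of the BAF chromatin remodelling complex. The TSA group was knockout tissue treated with TSA (trichostatin A, an inhibitor of histone deacetylases), and the Vehicle group was knockout tissue treated with vehicle. Each group had 4 RNA libraries and 4 libraries of chromatin immunoprecipitated for H3K9ac, histone H3 acetylated at lysine 9, a mark of active promoters and enhancers. All 16 libraries carry the knockout, the Cre line and the dose are not given in the labels, and no label states that replicates came from separate animals, so every p-value refers to the spread among these libraries, which may be technical.

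Long noncoding RNAs are transcripts that are not translated into protein, and some of the most abundant ones are retained in the nucleus. Malat1 gathers in nuclear speckles, bodies rich in splicing factors, and Neat1 is the scaffold around which paraspeckles, another kind of nuclear body, are built. The ends of Malat1 and of the long form of Neat1 are cut by RNase P rather than made by polyadenylation. Miat (also called Gomafu) lies in its own spots in neuronal nuclei and binds splicing factors, Rmst binds SOX2 in neural progenitors, and Snhg11 is the host gene of a small nucleolar RNA that is expressed in neurons. Pantr1 is transcribed beside Pou3f3, which encodes a transcription factor of cortical progenitors and upper-layer neurons.

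The start regions of Malat1, Miat and Snhg11 are printed because the H3K9ac peaks described further on meet them in different ways. Each line runs 5′ to 3′ on the gene's own strand, from 250 bases before the annotated start to 50 bases from it, with the annotated start as the first of those 50 (RefSeq, GRCm38.p6, the assembly of mm10). For Malat1 (chr19:5802623-5802922, minus strand), capitals mark the 89 bases that lay in no peak of any of the 8 lists. For Miat (chr5:112228899-112229198, minus strand), they mark the 119 bases inside a peak in all 8 lists. For Snhg11 (chr2:158375463-158375762, plus strand), they mark the 47 bases shared by the peaks of the 4 lists that had one.
Malat1: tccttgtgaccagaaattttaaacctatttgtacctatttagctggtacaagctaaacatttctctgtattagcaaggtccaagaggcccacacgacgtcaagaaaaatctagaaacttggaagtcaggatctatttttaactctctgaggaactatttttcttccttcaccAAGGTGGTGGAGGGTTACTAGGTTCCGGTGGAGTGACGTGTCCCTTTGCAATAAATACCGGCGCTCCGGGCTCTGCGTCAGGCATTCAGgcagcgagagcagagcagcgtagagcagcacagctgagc
Miat: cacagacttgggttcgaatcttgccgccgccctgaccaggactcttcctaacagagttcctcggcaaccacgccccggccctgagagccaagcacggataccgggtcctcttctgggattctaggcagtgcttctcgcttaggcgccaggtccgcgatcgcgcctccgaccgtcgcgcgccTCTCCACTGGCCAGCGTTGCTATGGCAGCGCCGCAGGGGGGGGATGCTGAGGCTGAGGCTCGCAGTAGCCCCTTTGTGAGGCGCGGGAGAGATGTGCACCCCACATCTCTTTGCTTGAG
Snhg11: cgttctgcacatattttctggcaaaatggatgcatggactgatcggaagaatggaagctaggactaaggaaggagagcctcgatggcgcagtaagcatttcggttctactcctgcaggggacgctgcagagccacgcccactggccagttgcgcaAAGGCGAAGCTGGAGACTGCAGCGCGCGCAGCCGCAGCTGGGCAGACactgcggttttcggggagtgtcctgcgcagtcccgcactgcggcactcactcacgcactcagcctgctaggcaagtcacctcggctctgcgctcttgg
The Malat1 window was 47.0% G and C and held 10 CG dinucleotides, more than 56.1% of the 27025 promoter windows of the same table. The Miat window held 25 CG dinucleotides at 64.3% G and C, more than 81.6% of windows, and the Snhg11 window held 21 at 60.0%, more than 75.0% of windows. On either strand, the letters TATAA and CCAAT occurred in none of the 3 windows, and GGGCGG occurred in that of Miat. These letters occur in 25.5%, 37.9% and 35.9% of all windows, in that order, and a match or its lack is a description of this window only.

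RNA libraries held 6733415 to 20400727 counts in TSA and 12200426 to 15600340 counts in Vehicle. Smarcc1, the gene of BAF155, had 133, 132, 118 and 144 CPM (a gene's counts after scaling each library to the same total) in TSA 1 to 4 and 130, 148, 141 and 124 CPM in Vehicle 1 to 4, and whole-gene counts with no intact sample do not check the deletion. All 8 cortical identity markers were detected, with summed levels of 2600 to 3042 CPM in TSA and 1495 to 2215 CPM in Vehicle. The 10 markers of inhibitory neurons and of the ganglionic eminence, which lies below the cortex, summed to 566 to 834 CPM in TSA and 1263 to 1575 CPM in Vehicle. Of these lists 7 of 8 cortical markers rose and 0 fell, and 9 of 10 inhibitory markers fell and 1 rose, beside 33.0% of all 15000 tested genes called in either direction. Markers of excitatory neurons rose in 9 of 9, with sums of 2898 to 3380 CPM in TSA and 1519 to 2236 CPM in Vehicle. Erythroid markers fell in 3 of 8, with sums of 223 to 256 CPM in TSA and 340 to 640 CPM in Vehicle, and microglial markers fell in 4 of 8, with sums of 32.4 to 46.6 CPM in TSA and 44.7 to 61.9 CPM in Vehicle. Xist, the RNA of the inactive X chromosome, was at 0.305 to 1.47 CPM in TSA 1 to 3, at 2327 CPM in TSA 4 and at 1768 to 3118 CPM in Vehicle, so the groups differ in sex makeup. With the log2 CPM of Xist as a covariate, 4 cortical and 6 excitatory markers rose, and 5 inhibitory, 1 erythroid and 0 microglial markers fell. In that fit 741 of all 15000 tested genes rose and 775 fell, so fewer genes of all kinds passed. With TSA 4 alone against Vehicle, a comparison with 1 TSA library, fewer of these markers passed, and so did fewer of all tested genes. Of 9 apical progenitor markers 4 rose and 3 fell in the main fit, with sums of 1738 to 1790 CPM in TSA and 1821 to 2173 CPM in Vehicle. Of 8 basal progenitor markers 3 rose and 0 fell, with sums of 884 to 1028 CPM in TSA and 537 to 747 CPM in Vehicle. With Xist as a covariate, 1 apical marker rose and 2 fell, and 3 basal markers rose. Mitochondrial genes took 1.48 to 1.71% of counts in TSA and 2.86, 1.60, 2.0 and 3.36% in Vehicle 1 to 4.

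Of the 5 measured RNAs, Pantr1 fell in TSA and the other 4, Malat1, Neat1, Miat and Snhg11, passed the test in neither direction. A change was called at an adjusted p under 0.05 in edgeR's quasi-likelihood test, with Benjamini-Hochberg adjustment over 15000 tested genes. That is 1 of 5 called, or 20%, beside 33.0% of all tested genes (15.4% higher and 17.6% lower in TSA). The groups overlapped in the same 4 genes, and 32.3% of all tested genes had groups that did not overlap (17.4% lower and 14.9% higher in TSA). The median size of the change was 0.27 on the log2 scale over all tested genes. In these bulk samples, fewer cells of a type and less RNA per cell cannot be told apart.

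**Figure D1:**
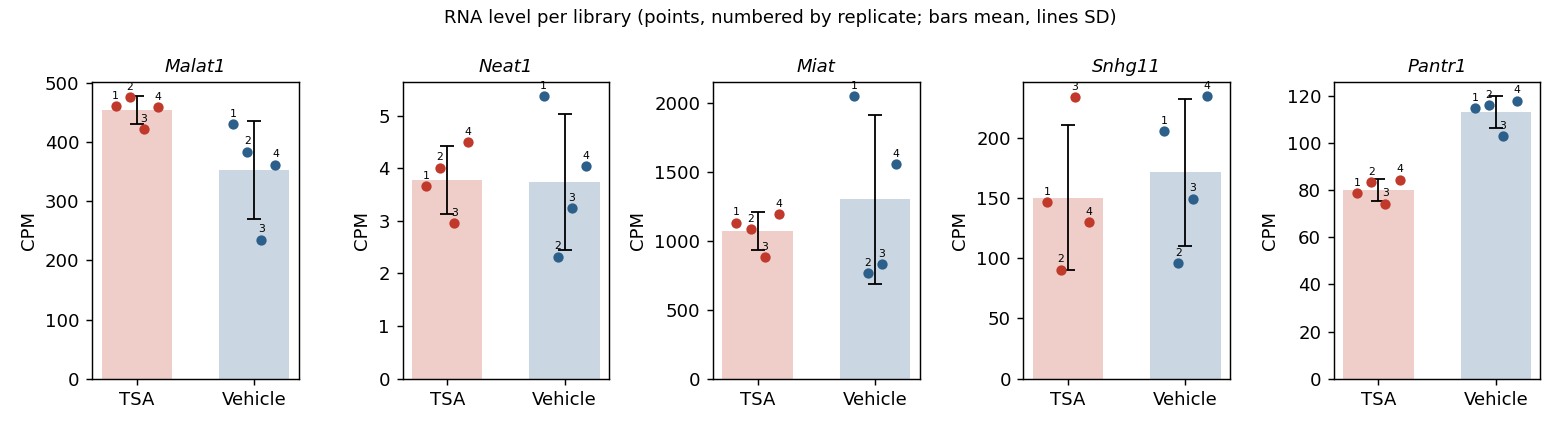
RNA level (CPM, vertical axes from 0, each with its own scale) of the 5 measured RNAs in each TSA and Vehicle library; points are libraries numbered by replicate, bars are means and lines are SD (n = 4 per group). All 4 TSA points of Pantr1 (74.3 to 84.5 CPM) lie below all 4 Vehicle points (103 to 118 CPM), and in the other 4 panels the groups overlap.

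Pantr1 (ENSMUSG00000060424, chr1:42648200-42694825, mm10) had 79.0, 83.4, 74.3 and 84.5 CPM in TSA 1 to 4, against 115, 116, 103 and 118 CPM in Vehicle 1 to 4. Every TSA library was below every Vehicle library, and within each group the libraries were close together. The means were 80.3 ± 4.67 CPM in TSA and 113 ± 6.76 CPM in Vehicle (SD, n = 4 each), a ratio of 0.71. On the log2 scale TSA minus Vehicle was −0.49 ± 0.08 (SE, edgeR adjusted p = 0.000558), beside a median size of 0.51 for a called change over all genes. With the log2 CPM of Xist as a covariate the change was −0.41 and the call ended (edgeR adjusted p = 0.0856), and with TSA 4 alone against the 4 Vehicle libraries, a comparison added after seeing the data that assumes TSA 4 varies like Vehicle, it was −0.42 (adjusted p = 0.221). The kit does not mark strand, and the predicted noncoding gene Gm46091 overlaps Pantr1, so reads of overlapping genes cannot be told apart. The genes most like Pantr1 over the 8 libraries, among 10209 compared, were Tyms, which encodes thymidylate synthase (Pearson r = 0.995 of log2 CPM), and Cenpl, a centromere protein gene (r = 0.994). Both were lower in TSA, by log2 changes of −0.70 and −0.66 (edgeR adjusted p = 0.000253 and 0.000834).

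Pou3f3, whose annotated start lies 943 bases from the end of Pantr1, went the other way. It had 430, 473, 364 and 487 CPM in TSA 1 to 4, against 248, 307, 277 and 204 CPM in Vehicle 1 to 4. No TSA library was as low as the highest Vehicle library. On the log2 scale it rose by 0.76 ± 0.13 (SE, edgeR adjusted p = 0.000531), and the call held under each alternative run, those on Xist included. Within each library the level of Pantr1 over that of Pou3f3 was 0.184, 0.177, 0.204 and 0.174 in TSA 1 to 4, against 0.464, 0.378, 0.373 and 0.579 in Vehicle 1 to 4. The log2 of this ratio averaged −2.44 ± 0.11 in TSA and −1.18 ± 0.30 in Vehicle (SD, n = 4 each), a difference of −1.26. The ratio was chosen after both genes were seen to separate the groups in opposite directions, which fixes its separation, so it is a description with no test.

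Pantr2, a second noncoding gene beside Pou3f3, did not pass. Its levels were 16.3, 15.9, 10.7 and 17.4 CPM in TSA 1 to 4, against 20.7, 12.6, 9.92 and 17.4 CPM in Vehicle 1 to 4. Its change was −0.02 ± 0.22 on the log2 scale (SE, edgeR adjusted p = 0.967), and the log2 ratio of Pantr1 to Pantr2 differed by −0.52 (two-sided exact permutation p = 0.0857). That ratio too was chosen after Pantr1 was seen to separate the groups, so it is a description and its p-value adds no support. Of the 4 Pou3f genes, which encode POU-domain transcription factors of neural cells, 3 rose and 1 fell, beside 15.4% higher and 17.6% lower over all tested genes. Pou3f1 rose by 0.90 ± 0.15 and Pou3f2 by 0.89 ± 0.11 on the log2 scale, and Pou3f4, which is expressed in the ganglionic eminence, fell by 1.39 ± 0.16 (SE, n = 4 per group, edgeR adjusted p = 0.000555, 8.14e-05 and 5.55e-05). The fall of Pou3f4 stands beside the lower inhibitory and ganglionic eminence markers, and the part of tissue makeup in it was not tested.

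**Figure D2:**
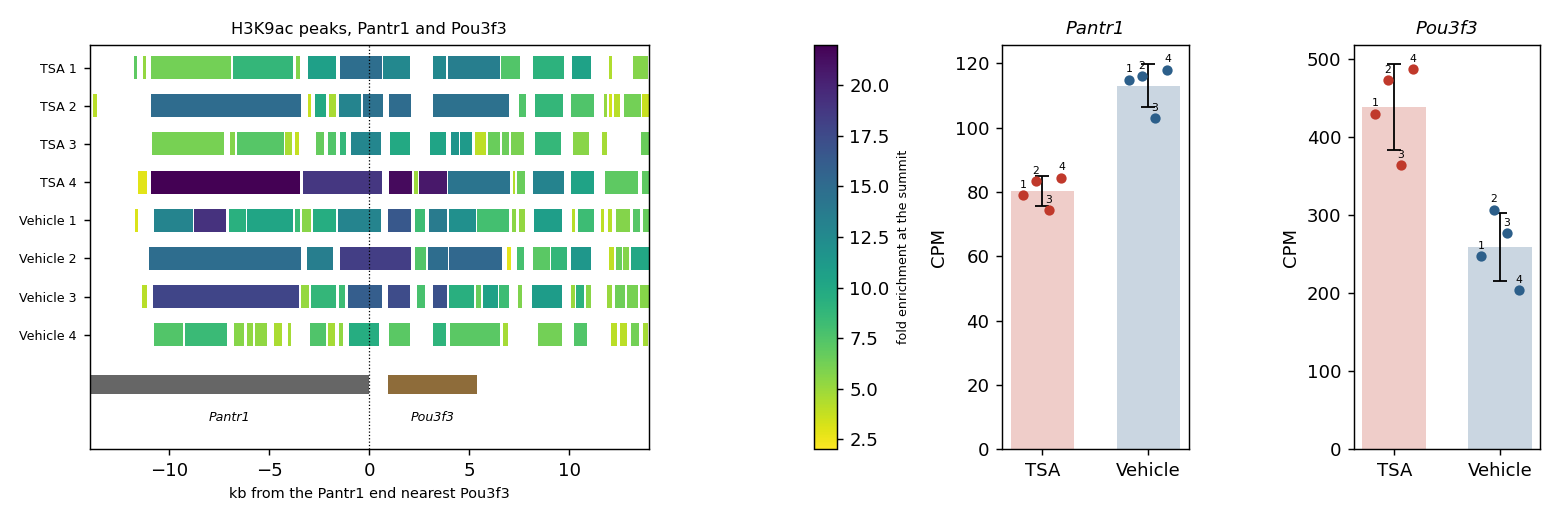
Left, H3K9ac peaks in each library (horizontal axis, kb from the Pantr1 end nearest Pou3f3; colour, the authors' fold enrichment at the summit; grey and brown bars, gene spans). Right, CPM of Pantr1 and Pou3f3 per library, with points numbered by replicate and bars showing mean and SD (n = 4 per group): peaks cover most of the window in all 8 lists, Pantr1 averages 80.3 CPM in TSA and 113 CPM in Vehicle, and Pou3f3 438 CPM in TSA and 259 CPM in Vehicle.

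H3K9ac covered the ground between Pantr1 and Pou3f3 in every library. All 8 lists had a peak within 1000 bases of the Pantr1 end that faces Pou3f3, and 0 of 8 had one within 1000 bases of its other end. In the 24001 bases centred on that end (chr1:42682825-42706825), peaks covered 79.8, 78.0, 70.2 and 87.6% in TSA 1 to 4, against 81.3, 82.7, 78.0 and 61.4% in Vehicle 1 to 4. The groups overlapped, and Vehicle 4, the list with the fewest peaks, was the lowest. The strongest peak at Pantr1 was above 99.4% to 99.9% of the peaks of its own list in TSA and above 97.9% to 99.8% in Vehicle. The 942 bases between the genes were 94.3, 73.0, 64.0 and 65.9% covered in TSA 1 to 4, against 64.5, 100, 66.8 and 51.4% in Vehicle 1 to 4. Of the peaks in the span of Pantr1, at most 3 in a TSA list and at most 2 in a Vehicle list lay further than 12 kb from the facing end. Heights cannot be set side by side between lists, so an RNA level that differed between groups stands here beside peaks whose presence did not differ.

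Malat1 (ENSMUSG00000092341, chr19:5795690-5802672, minus strand) had 462, 476, 422 and 459 CPM in TSA 1 to 4, against 431, 384, 235 and 362 CPM in Vehicle 1 to 4. The TSA libraries were close together, and Vehicle 1 reached into their range. The means were 455 ± 22.9 CPM in TSA and 353 ± 83.7 CPM in Vehicle (SD, n = 4 each). This log2 difference of 0.36 ± 0.15 (SE) missed the threshold over all genes (edgeR adjusted p = 0.0706, unadjusted 0.0259). Without Vehicle 1 it was 0.47 and passed (adjusted p = 0.0235). Vehicle 1 is the highest Vehicle library, so leaving it out fixes a larger difference. With the log2 CPM of Xist as a covariate the difference was 0.41 and did not pass (edgeR adjusted p = 0.295). Over all alternatives it stayed above 0, at 0.21 to 0.55, so the direction was the same while the call depended on the setting. By mean level Malat1 ranked 290th of the 15000 tested genes, above 98.1% of them. The genes most like it over the 8 libraries were Srrm4os, which is antisense to the neuronal splicing factor gene Srrm4 (Pearson r = 0.972), and Hmbox1, a homeobox gene (r = 0.965).

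Neat1 (ENSMUSG00000092274, chr19:5824708-5845480) was scarce in these libraries, which goes against the word abundant that is often used for this group of RNAs. It had 24, 71, 60 and 72 counts in TSA 1 to 4 and 78, 36, 47 and 51 counts in Vehicle 1 to 4. In CPM this was 3.66, 4.01, 2.96 and 4.50 in TSA 1 to 4, against 5.36, 2.32, 3.24 and 4.04 in Vehicle 1 to 4, with groups that overlapped. Its mean level was above 20.4% of the tested genes. Its change was 0.02 ± 0.26 on the log2 scale (SE, edgeR adjusted p = 0.963), and without Vehicle 1 and Vehicle 4 it was 0.44, also not called. The genes most like it were Meis3, a homeobox gene (Pearson r = 0.980), and Lemd2, which encodes a protein of the inner nuclear membrane (r = 0.977).

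Malat1 and Neat1 are neighbours on chromosome 19 and can be set side by side per length. Per kb of genomic span, Malat1 had 60.5 to 68.1 CPM in TSA and 33.7 to 61.7 CPM in Vehicle, and Neat1 had 0.143 to 0.217 CPM in TSA and 0.112 to 0.258 CPM in Vehicle. Malat1 over Neat1 on this scale was 376, 353, 424 and 303 in TSA 1 to 4, against 239, 493, 216 and 267 in Vehicle 1 to 4. Vehicle 2 held the highest ratio and Vehicle 3 the lowest, so the groups overlapped. The whole annotated span of Neat1, 20773 bases, was used, and which form of Neat1 gave the reads was not tested. If they came from a shorter form, the ratio would be lower. The library kit, TruSeq RNA v2, selects polyadenylated RNA, so these are levels of what that selection kept, and RNA without a tail was not measured on its own.

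Miat (ENSMUSG00000097767, chr5:112213228-112228948, minus strand) was the most abundant of the measured RNAs by CPM, above 99.7% of tested genes. It had 1131, 1084, 879 and 1192 CPM in TSA 1 to 4, against 2045, 767, 831 and 1556 CPM in Vehicle 1 to 4. The Vehicle libraries lay on both sides of the whole TSA group, with Vehicle 1 and Vehicle 4 above it and Vehicle 2 and Vehicle 3 below it. The means were 1071 ± 136 CPM in TSA and 1300 ± 612 CPM in Vehicle (SD, n = 4 each), a log2 fold change of −0.28 ± 0.28 (SE, edgeR adjusted p = 0.497). Vehicle 1 and Vehicle 4 were also the libraries richest in mitochondrial counts, and without both the log2 fold change of Miat was 0.42 (adjusted p = 0.0172), a reversal. As they are the Vehicle libraries above the TSA group, leaving them out fixes this direction, and the p-value adds nothing to it. The direction of Miat therefore rests on which Vehicle libraries enter. The genes most like it were Rpl10a, a ribosomal protein gene whose counts could be shared with pseudogenes (Pearson r = 0.997), and Ints6l, an Integrator subunit gene (r = 0.990).

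Snhg11 (ENSMUSG00000044349, chr2:158375713-158386474, plus strand) varied widely in both groups. It had 147, 90.7, 234 and 130 CPM in TSA 1 to 4, against 205, 96.2, 150 and 234 CPM in Vehicle 1 to 4. TSA 3 and Vehicle 4 held the same high level, and TSA 2 and Vehicle 2 the lowest levels of their groups. Its change was −0.19 ± 0.33 on the log2 scale (SE, edgeR adjusted p = 0.715), and without Vehicle 1 and Vehicle 4 it was 0.29 (adjusted p = 0.669). The genes most like it were Lin28b, which encodes an RNA-binding protein of early development (Pearson r = 0.956), and Trank1 (r = 0.919). These correlations, like those of the other RNAs, are descriptions over 8 libraries that share the 2 treatment groups and their differences in sex and mitochondrial content.

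The RNAs also differed in how much their replicates varied. The SD of log2 CPM over the 4 Vehicle libraries was 0.69 for Miat, larger than in 96.8% of tested genes, and over the 4 TSA libraries it was 0.19, larger than in 65.0%. For Malat1 it was 0.07 in TSA and 0.38 in Vehicle, larger than in 20.5% of genes within TSA and 81.8% within Vehicle. Snhg11 was among the most variable genes in both groups, at 0.56 in TSA and 0.57 in Vehicle. For Pantr1 it was 0.08 in TSA and 0.09 in Vehicle, larger than in 25.9% of genes within TSA and 8.89% within Vehicle. For all tested genes the median SD was 0.14 in TSA and 0.21 in Vehicle, so Vehicle libraries were the more spread in general.

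Peaks of H3K9ac at the gene starts differed between the listed genes. Of the 3 genes with a start taken from the promoter table, Malat1 and Miat had a peak within 1000 bases of the start in all 8 lists, as did 69.9% of the 11059 tested genes with a promoter entry. Snhg11 had one in 2 of 4 TSA lists (TSA 3 and TSA 4) and 2 of 4 Vehicle lists (Vehicle 2 and Vehicle 3). The strand of Neat1, Rmst and Pantr1 was not used here, so both annotated ends were looked at. At the end with the higher coordinate, Neat1 and Pantr1 had a peak in all 8 lists and Rmst in 3 of 4 TSA lists, all but TSA 1, and 4 of 4 Vehicle lists. At the other end, TSA 4 alone had a peak at Neat1, and 0 of 8 lists had one at Rmst or Pantr1. Neither Snhg11 nor Rmst differed between groups in presence (two-sided exact permutation p = 1.0 for each), and 12 of the 11059 genes, 0.109%, had a start peak in all lists of one group and none of the other.

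**Figure D3:**
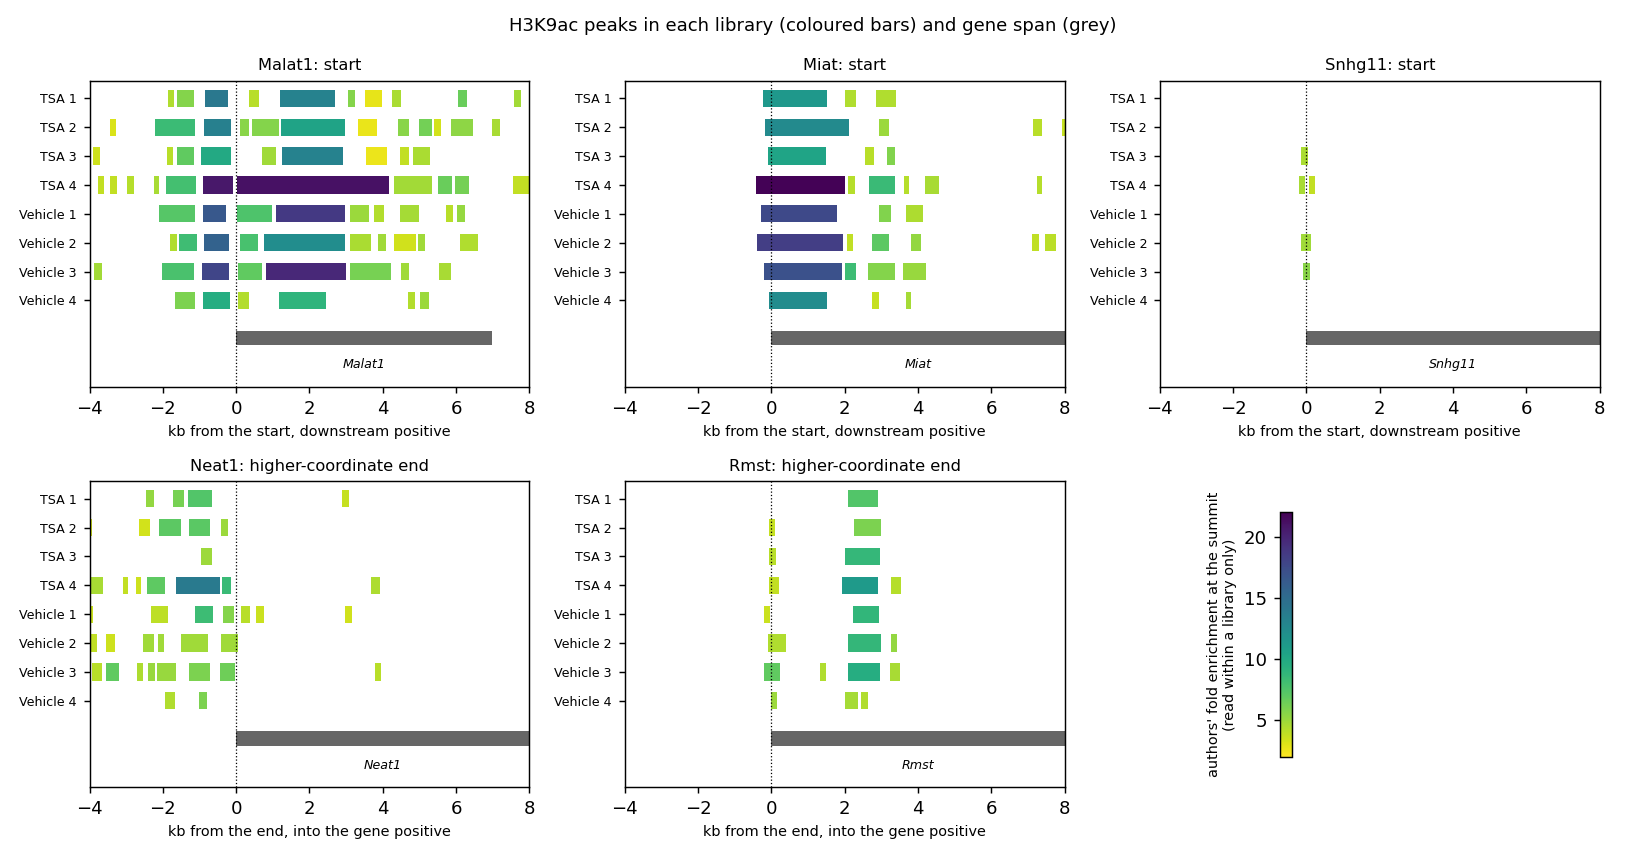
H3K9ac peaks of each library (rows) around the starts of Malat1, Miat and Snhg11 and the higher-coordinate ends of Neat1 and Rmst (horizontal axes, kb, into the gene positive; grey bars, gene spans; colour, the authors' fold enrichment at the summit, to be read within a row). Malat1 has peaks on either side of its start with a gap across it in all 8 rows, Miat has a peak across the start in all 8, and Snhg11 has a small peak in 4 rows, TSA 3, TSA 4, Vehicle 2 and Vehicle 3.

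Peaks of H3K9ac at Malat1 spread far into the gene, and the start itself lay in no called peak. Signal between called peaks was not measured, so the mark may still be present there. Peaks covered 42.3, 67.5, 47.6 and 85.4% of its span in TSA 1 to 4, against 65.4, 68.5, 64.7 and 28.9% in Vehicle 1 to 4. TSA 4 was the highest and Vehicle 4 the lowest, and the groups overlapped. The strongest peak at Malat1 was above 99.3% to 99.6% of peaks of the same list in TSA and 97.9% to 99.7% in Vehicle. In each of the 8 lists the start lay in a gap between peaks, of 568, 262, 850 and 115 bases in TSA 1 to 4 and 299, 297, 225 and 216 bases in Vehicle 1 to 4. The 89 bases common to these gaps, in capitals in the Malat1 sequence, run from 78 bases before the start to 10 bases after it.

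At Miat, by contrast, 1 broad peak crossed the start in every list. It was 1561 to 2426 bases long in TSA and 1590 to 2361 bases long in Vehicle. Within each list it was above 96.5% to 99.7% of peaks in TSA and 99.0% to 99.8% in Vehicle. Its summit lay 403 to 1078 bases inside the gene in TSA and 441 to 508 bases inside in Vehicle, with TSA 3 the furthest in. Peaks covered 15.0 to 34.9% of the span in TSA and 13.8 to 30.1% in Vehicle, so the large spread of Miat RNA between Vehicle libraries stood beside a start peak present in each. Nothing in the labels ties an RNA library to an H3K9ac library of the same tissue, so the values were not matched library by library.

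The peak at the marked end of Neat1 ranked below the start peaks of Malat1 and Miat in each of the 8 lists. Its peak was above 79.8, 83.7, 40.6 and 94.5% of peaks in TSA 1 to 4, against 80.4, 45.3, 63.2 and 68.4% in Vehicle 1 to 4, with no separation of groups. The summits lay outside the annotated span in all 8 lists, and peaks covered at most 1.27% of the span in TSA and 3.70% in Vehicle. At Rmst (chr10:92081746-92165178) the end peak was small, and a second peak lay inside the gene in all 8 lists. Its summit was 2571 to 2747 bases inside the end in TSA and 2102 to 2838 bases inside in Vehicle. This inner peak was above 75.1% to 90.9% of peaks in TSA and 36.4% to 84.0% in Vehicle, where Vehicle 4 was the lowest.

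The start peaks of Snhg11 were short and low in the ranking of their lists. They were 180 and 154 bases long in TSA 3 and TSA 4, and 275 and 182 bases long in Vehicle 2 and Vehicle 3. The authors' fold enrichment at the summit was 4.54 and 4.62 in TSA and 4.82 and 5.52 in Vehicle, above 26.9% to 39.7% of peaks in the TSA lists and 40.5% to 51.5% in the Vehicle lists. Among 2176 tested genes with a promoter entry and a mean of at least 100 CPM, 92.2% had a start peak in all 8 lists, and 42 genes, 1.93%, had one in at most 4 lists, Snhg11 among them. The 47 bases shared by its peaks, in capitals in the Snhg11 sequence, lay 95 to 49 bases before the annotated start. RefSeq gives this start, and a start used in cortex but not annotated there was not looked for.

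Of the 13 different protein-coding genes tested that start within 100 kb of a listed gene, 4 rose and 1 fell, beside 33.0% called over all tested genes (15.4% higher and 17.6% lower). Malat1 had 9 such neighbours, 6 of them tested, of which 1 rose and 1 fell. Neat1 had 10, with 8 tested, 2 risen and 1 fallen, and most are neighbours of both genes. Ltbp3, which encodes a binding protein of latent TGF-beta, rose by 0.51 ± 0.18 on the log2 scale (edgeR adjusted p = 0.0411), and leaving out TSA 1, TSA 4, Vehicle 2, Vehicle 3 or Vehicle 4 ended that call. Tigd3, a gene derived from a transposase, had a log2 change of −0.62 ± 0.13 (adjusted p = 0.00258), and Dpf2, a BAF complex subunit gene, rose by 0.26 ± 0.09 (adjusted p = 0.0321), a call that ended in several settings, such as without TSA 1 (adjusted p = 0.0849). Frmd8, which encodes a FERM-domain protein, had a change of 0.33 ± 0.13 that missed the threshold (adjusted p = 0.0554). At Miat, 1 of 3 tested neighbours rose, the splicing factor gene Tfip11 (0.36 ± 0.11, adjusted p = 0.0234, and 0.20 with adjusted p = 0.147 without Vehicle 1 and Vehicle 4), while Tpst2, a tyrosylprotein sulfotransferase gene, and the lens crystallin gene Crybb1 had changes of −0.08 and −0.31 (adjusted p = 0.775 and 0.647). The tested neighbour of Snhg11, Ralgapb, had a change of 0.14 (adjusted p = 0.223), the neighbour of Pantr1 was Pou3f3, and Rmst had 0. Without TSA 1, TSA 4 or Vehicle 4, 1 of the 13 rose, Pou3f3, and 1 fell, Tigd3.

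**Figure D4:**
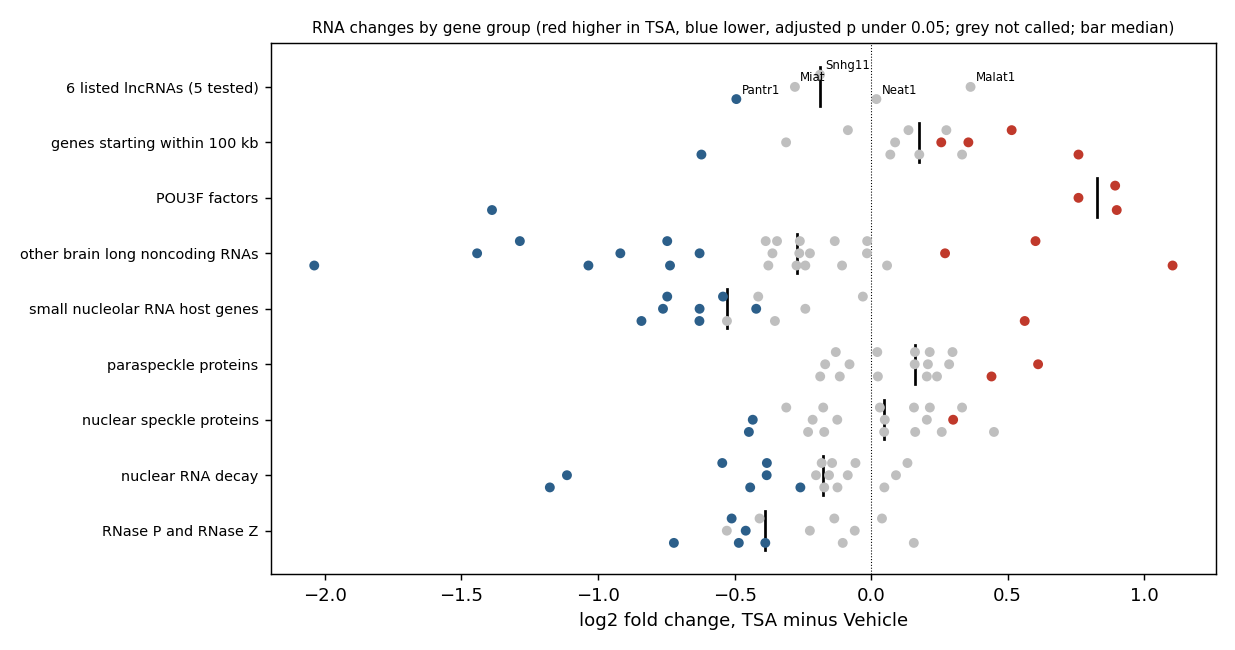
Log2 fold change, TSA minus Vehicle, of each tested gene (points) by group; red and blue points passed at an edgeR adjusted p under 0.05, grey did not, and black bars are group medians. Pantr1 is the called point among the 5 measured RNAs, and medians are −0.53 for small nucleolar RNA host genes, −0.27 for other brain long noncoding RNAs and 0.16 for paraspeckle proteins, beside −0.01 for all tested genes.

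Among genes for proteins of the bodies that Malat1 and Neat1 belong to, the called share was 11.8% for paraspeckles and 15.8% for speckles, beside 33.0% of all tested genes. Of 17 paraspeckle protein genes 2 rose and 0 fell, with a median log2 fold change of 0.16 beside −0.01 for all tested genes. The genes that rose were Rbm14 (0.61 ± 0.11, edgeR adjusted p = 0.000707) and Sfpq (0.44 ± 0.10, adjusted p = 0.00463), both needed for paraspeckles to form. Taf15, an RNA-binding protein gene, had a change of 0.29 (adjusted p = 0.0759). Of 19 nuclear speckle protein genes 1 rose and 2 fell, with a median of 0.05. The splicing factor genes Srsf7 (−0.43 ± 0.09, adjusted p = 0.00254) and Srsf3 (−0.45 ± 0.10, adjusted p = 0.00361) fell, Rbm25 rose (0.30 ± 0.09, adjusted p = 0.0233), and Srsf6 had a change of −0.31 (adjusted p = 0.0563). With Xist as a covariate the calls of Srsf7, Srsf3 and Rbm25 ended and those of Rbm14 and Sfpq held. Without Vehicle 1, 4 paraspeckle genes and 6 speckle genes rose, beside 2311 of all 15295 tested genes in that fit. Without Vehicle 2, 5 and 2 rose, beside 2702 of all 15248 tested genes in that fit. The call of Rbm25 ended without TSA 2, TSA 3, TSA 4, Vehicle 3 or Vehicle 4, where its change was 0.25 to 0.30.

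Among 6 genes for proteins reported to bind Miat or Rmst, 1 rose and 0 fell, 16.7% called beside 33.0% of all tested genes. Sf1, a splicing factor that binds the repeat of Miat, rose by 0.41 ± 0.09 (edgeR adjusted p = 0.00407). Sox2, the partner of Rmst, had a change of −0.40 ± 0.16 that missed the threshold (adjusted p = 0.0660). Celf3 and Srsf1, which bind Miat, had changes of 0.20 and −0.12 (adjusted p = 0.240 and 0.358). The median over the 6 genes was 0.08. Without Vehicle 1, 2 rose and 1 fell, beside 2311 risen and 2677 fallen of all 15295 tested genes in that fit.

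Genes for enzymes that trim or destroy nuclear RNA passed the test at a share near that of all genes, and those called were lower in TSA. Of 18 nuclear RNA decay genes 0 rose and 7 fell, 38.9% called beside 33.0% of all tested genes (17.6% lower), with a median log2 fold change of −0.18. Rbm7, which brings the nuclear exosome to its targets, had 38.8 CPM in TSA and 84.4 CPM in Vehicle on average, a change of −1.11 ± 0.11 (edgeR adjusted p = 2.45e-05). C1d, an exosome cofactor gene, had a change of −1.18 ± 0.14 (adjusted p = 7.33e-05), and the exosome subunit genes Exosc8 (−0.54) and Exosc9 (−0.38) fell too (adjusted p = 0.0017 and 0.00737). Of 13 genes of RNase P, which cuts the end of Malat1, and RNase Z, which trims the small RNA released, 0 rose and 5 fell, 38.5% called, with a median of −0.39, and Rpp30 (−0.72), Rpp14 (−0.46), Pop4 (−0.39) and Pop5 (−0.48) had the smallest p (edgeR adjusted p = 0.000949, 0.00148, 0.0026 and 0.00854). With Xist as a covariate 2 decay genes and 1 RNase gene fell, beside 775 of all 15000 tested genes in that fit. Without Vehicle 1 and Vehicle 4, 5 decay genes (with 1 rise) and 3 RNase genes fell, beside 2477 of all 15595 tested genes. Without TSA 2 the decay count was 4, beside 2104 of all 15235 tested genes fallen. Slopes of log2 CPM over genomic span were 0.03 to 0.16 in TSA libraries and −0.20 to 0.05 in Vehicle libraries, and with that trend removed 4 decay genes and 4 RNase genes fell (limma).

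Among other long noncoding RNAs of brain, falls outnumbered rises. Of 25 tested, 3 rose and 8 fell, 44.0% beside 33.0% of all tested genes, with a median log2 fold change of −0.27. Sox2ot, which overlaps Sox2 (−1.44 ± 0.10), and Dlx6os1, an antisense RNA of the ganglionic eminence (−2.04 ± 0.14), had the smallest p (edgeR adjusted p = 6.38e-07 and 7.40e-07). The imprinted genes H19 and Rian had changes of −1.29 and −0.92 (adjusted p = 0.000178 and 0.000371). Against the majority, 2900097C17Rik, the gene of Norad, rose by 1.10, and the imprinted genes Kcnq1ot1 and Peg13 rose by 0.60 and 0.27 (edgeR adjusted p = 0.000445, 0.0487 and 0.0454). The kit does not mark strand, so reads of Sox2ot, Dlx6os1, Kcnq1ot1 and Peg13 cannot be told apart from those of genes they overlap. Dlx6os1 is itself 1 of the 10 inhibitory and ganglionic eminence markers. These summed to 566 to 834 CPM in TSA and 1263 to 1575 CPM in Vehicle. Dlx6os1 averaged 84.3 CPM in TSA and 348 CPM in Vehicle, so part of the lower sum is its own fall. The part of those cells in its change, or of the erythroid, microglial, progenitor and excitatory neuron markers that also moved, was not tested. With Xist as a covariate 0 of the 25 rose and 4 fell, beside 741 of all 15000 tested genes risen and 775 fallen. Of the 25, 1 rose without any 1 of the TSA libraries or without Vehicle 4.

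Snhg11 belongs by name to the small nucleolar RNA host genes, and the 13 others tested had 1 rise and 7 falls, 61.5% called beside 33.0% of all tested genes (17.6% lower), with a median log2 fold change of −0.53. Snhg1 (−0.84 ± 0.16), Zfas1 (−0.75 ± 0.15), Snhg5 (−0.63 ± 0.13) and Snhg6 (−0.76 ± 0.18) fell (edgeR adjusted p = 0.00144, 0.00167, 0.002 and 0.00469). Snhg18 rose by 0.56 ± 0.19 (adjusted p = 0.0318). The change of Snhg11, −0.19 ± 0.33, had an error larger than its size, so whether it differs from these genes was not tested. With Xist as a covariate 0 of the 13 passed in either direction, beside 741 of all 15000 tested genes risen and 775 fallen in that fit. Without Vehicle 1 and Vehicle 4, 2 rose and 3 fell, beside 2239 risen and 2477 fallen of all 15595 tested genes. The falls numbered 4 without TSA 2, Vehicle 1 or Vehicle 4, and the call of Snhg18 ended without TSA 1, TSA 2, TSA 3 or Vehicle 3, where its change was 0.42 to 0.56. Zfas1, Epb41l4aos and Gas5 are counted in this list and in that of other long noncoding RNAs, and Zfas1 and Epb41l4aos are among the falls of both.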

How the data were processed

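The members and gene lists were chosen with earlier results of these data known. Each RNA file holds the raw, unnormalized counts of 1 library as deposited, by Ensembl gene ID, and its lines for unassigned reads summed to 0. The submitters' processing notes name mm10 and SAMtools, and for the aligner, counter and annotation nothing is given in the sources used here. The TruSeq RNA v2 kit of the labels' protocols does not mark strand.

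Peaks were called in each library on its own with MACS2 2.1.0.20140616 at a q-value limit of 0.1, per the file headers, with 50 bp tags, 1 tag per position and 1 shared input library of 18937878 tags. For each peak the authors give a pileup signal, a fold enrichment (ratio to local background) and −log10 p-values and q-values, which served here to order and filter the peaks of 1 list at a time. TSA lists hold 32248 to 61217 peaks and Vehicle lists 22668 to 43645. The 2 input samples were not analysed here.

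Gene counts were compared in edgeR 4.0.16 under R 4.3.3 (filterByExpr, TMM, robust quasi-likelihood test, no covariate), with Benjamini-Hochberg adjustment over 15000 genes, and the script was tested on simulated data. The SE is the change divided by the square root of F. CPM uses TMM-scaled totals, and log2 CPM a prior count of 2. All log2 fold changes are TSA minus Vehicle. DESeq2 1.42.0 and limma 3.58.1 were alternatives, and permutation tests used scipy 1.17.1 under Python 3.11.15. Symbols matched 47224 of 47729 IDs. Other alternatives were RLE factors, no filter, a composition check, lane and Xist covariates, span trend removal and left-out libraries, and for peaks a window of 2500 bases, q under 0.001 and summits in place of overlap.

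Beside the 6 listed genes, the text names up to 4 members of each list with the smallest p and members against the majority, up to 3 neighbours within 100 kb, and the 2 genes most like each RNA with mean log2 CPM above 3. The text leaves out 1 gene that this rule would name. The ratios of Pantr1 to Pou3f3 and to Pantr2 were chosen after values were seen. Replicates differed beyond sampling noise in every pair (chi-square per degree of freedom 3.12 to 36.0). Reads have no molecular identifiers, so depth speaks for counting error alone.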

Additional observations from a re-analysis of the deposited data

Results flagged for a closer look

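The share of the Malat1 span covered by H3K9ac peaks in Vehicle 4 was 28.9%, far from the 64.7 to 68.5% of the other 3 Vehicle lists. Vehicle 4 also had the fewest peaks of all lists, 22668, and covered 8157956 bases in all. It was the single value that stood apart among 40 groups of 4 checked, and chance alone sets apart about 1 in 20 such groups.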

How the results depend on the processing

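Malat1 kept its direction in all 19 alternatives. It passed with no filter (log2 fold change 0.37, edgeR adjusted p = 0.00951), DESeq2 (0.38, adjusted p = 0.0359) and the replicate block (0.40, adjusted p = 0.00868). It also passed without Vehicle 1 (0.47, adjusted p = 0.0235), without Vehicle 1 and 4 (0.55, adjusted p = 0.0358) and with the span trend removed (0.53, limma adjusted p = 0.0145). Leaving out Vehicle 1, the highest Vehicle library for Malat1, fixes a larger difference in the settings without it. In the other 13 Malat1 missed the threshold, as with Xist (0.41, edgeR adjusted p = 0.295) or lane (0.31, adjusted p = 0.096) as a covariate. Leaving out each library gave 0.21 to 0.47 for Malat1, −0.16 to 0.25 for Neat1, −0.46 to 0.0273 for Miat (above 0 without Vehicle 1), −0.49 to −6.34e-06 for Snhg11 and −0.54 to −0.46 for Pantr1. Without Vehicle 1 and 4, Miat reversed (0.42, adjusted p = 0.0172), which leaving out its highest libraries fixes. In the same setting Snhg11 reversed (0.29) and Neat1 moved to 0.44 (adjusted p = 0.238), both without a call. Pantr1 missed the threshold with Xist as a covariate (−0.41) and in Xist-positive libraries alone (−0.42). Genes called numbered 4954, against 1516 with the Xist covariate, 453 in Xist-positive libraries alone and 3856 to 5593 leaving out each library, and the causes were not tested. Leaving out each H3K9ac list moved the difference in presence, TSA minus Vehicle, between −33.3 and 0 percentage points at Rmst and between −16.7 and 16.7 at Snhg11, with no call. Rmst peaks with q under 0.001 were in 0 TSA and 3 Vehicle lists.

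Same-numbered libraries of the 2 groups correlated at 0.0678 to 0.208, and 4 of 8 correlated best with their own number. The labels give the numbers no shared origin and 1 of the correlations was below 0.1, so the numbers were not taken to pair the samples, although all were positive. The replicate block gave 5342 calls. Neat1 rests on the fewest counts, 24 to 78 per library.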
